A study of Arabidopsis thaliana with 6 samples.

Results

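A VAP mutant and a VAP-overexpressing line of Arabidopsis seedlings were set together against the wild type, to ask which transcripts lay on the same side of the wild type in both. One line is labelled atvap mutant. The other, TaVAPOE, is described as the wild type with TaVAP overexpression. The comparison used all 6 arrays of the series: the 2 mutant and the 2 TaVAPOE arrays formed one side, called the altered side here, and the 2 wild-type (WT) arrays the other. A gene was counted where all 4 altered arrays read above both WT arrays, or all 4 below both. Every plant was 5 days old, was grown on OS medium under 16 h of light and 8 h of dark, received no treatment and was taken whole. Neither the mutated locus nor the promoter driving TaVAP, the number of independent lines or the plants' accession is stated in the sources used here, so each line may be a single clone. Where the labels say biological replicate, they do not say whether the plants were pooled.

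VAP proteins are anchored in the membrane of the endoplasmic reticulum (ER), where they bind partners on other membranes and hold them close. Plants have a family of them, named VAP27 in Arabidopsis, with known parts in ER structure, lipid exchange, endocytosis and the cytoskeleton.

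Values are the deposited probe-set values, which are on a log scale of unstated base. A difference is given in log units, with limma's standard error after ±, and a fold is the reading for base 2. Of 22810 probe sets 64 are controls, and 22746 were tested. A single gene was assigned to 13513 of them, which gave 13356 genes at 1 probe set per gene. Only 1557 of these genes carry a symbol other than a locus number, so many genes are named by locus alone and without a role.

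Both sides hold an array that stands apart. WT replicate 1 correlated with the 4 concordant arrays (WT replicate 2, mutant replicate 2 and both TaVAPOE arrays) at a Pearson r of at most 0.526 across probe sets, and mutant replicate 1 correlated with no array above 0.194. The plant reference transcripts (6 control probe sets for 3' ends) had a mean of 6.09 on WT replicate 1 and of 3.50 on mutant replicate 1, beside 7.54 to 7.65 elsewhere. The 18 bacterial hybridisation controls averaged 9.09 on mutant replicate 1, against 5.81 to 7.0 elsewhere. Of 13 leaf markers 4 were measured, and RCA, LHCB4.1 and PSAE-1 read 8.92 to 9.55 on every array but mutant replicate 1, where they read 2.62 to 4.15. The fourth, PRK, read 5.23 on WT replicate 1, 4.24 on mutant replicate 1 and 7.22 to 7.54 on the 4 concordant arrays. Of 13 root markers 2 were measured, EXPA7 and EXPA18, which read between 1.69 and 3.79. Leaf markers were thus bright on the 4 concordant arrays, lower on mutant replicate 1 and, for PRK, lower on WT replicate 1, while root was weakly covered. Of 10 seed markers 0 were measured. Measured here means found among the genes with a named probe set, so other markers may lie on probe sets that were unnamed or had several genes. Differences are therefore also given over the 4 concordant arrays, singly or as the range of a group of genes.

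All 4 altered arrays lay above both WT arrays for 1241 probe sets, 5.46% of those tested, and below both for 962, or 4.23%. Over genes the counts were 695 higher (5.2%) and 610 lower (4.57%). Requiring that the mean of the higher side exceed 2.80, the median of all values, left 836 genes, 535 higher and 301 lower, from which genes were named. The gaps were narrow: the lowest array of the higher side lay over 1 log unit from the highest of the lower side in 14 probe sets that were higher and 17 that were lower. The widest gaps were 1.48 upward and 1.5 downward, both in probe sets without a single gene. These are whole seedlings, so fewer cells of a type and less RNA per cell cannot be told apart.

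No probe set passed the test of the altered side against WT. In limma, 0 of 22746 (0.0%) had an adjusted p under 0.05, while 270 higher (1.19%) and 272 lower (1.2%) had an unadjusted p under 0.05. The adjusted p of each gene named below over 6 arrays was 0.99998 in limma. Over the 4 concordant arrays 0 passed (0.0%), with 1174 higher (5.16%) and 1462 lower (6.43%) at an unadjusted p under 0.05. For a single gene, an exact permutation test over the 6 arrays cannot give a p under 0.05, since there are 15 ways to choose the 2 WT arrays. Its smallest two-sided p is 0.133 where the one-sided value is doubled.

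Among the genes that read lower in both lines, LBD29 had the widest gap. It encodes a LOB-domain transcription factor that acts downstream of auxin in lateral root formation. LBD29 read 3.13 and 2.82 in WT, 1.38 and 1.07 in the mutant, and 1.11 and 1.07 in TaVAPOE. All 4 altered arrays sat within a narrow band, all below the 20th percentile of all values (1.66), and both WT arrays were clear of it. The difference was -1.82 ± 0.34 log units, or 3.52-fold lower, and -1.31 with values raised to 1.66. On the 4 concordant arrays it was -1.74 ± 0.20 (limma adjusted p = 0.188).

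PDF1.2, a plant defensin gene used as a marker of jasmonate and ethylene signalling, had a similar pattern. It read 3.07 and 3.4 in WT. The mutant arrays read 1.79 and 1.85 and the TaVAPOE arrays 1.70 and 1.99. The 4 altered arrays lay close to each other, and the 2 WT arrays stood together above them. The difference was -1.40 ± 0.34 log units, and -1.55 ± 0.22 over the 4 concordant arrays (limma adjusted p = 0.188).

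The other genes with wide downward gaps have no symbol. AT2G37750 read 3.73 and 3.59 in WT against 1.98 to 2.21 on the altered arrays, a difference of -1.59 ± 0.33. AT4G15860 read 3.08 and 2.51 against 0.89 to 1.13, all 4 below 1.66, which gave -1.79 ± 0.36 as measured and -1.14 with values raised to 1.66. AT1G64360 read 3.91 and 3.98 against 1.77 to 2.82 (-1.64 ± 0.41). In these 3 genes both WT arrays stood clear of all 4 altered arrays, as the choice by gap required. AT5G02680 read 2.97 and 2.98 in WT and 1.48 to 1.91 on the altered side (-1.33 ± 0.34). AT5G51420 read 3.74 and 3.45 against 2.19 to 2.44 (-1.22 ± 0.34).

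In the remaining 5 of the 12 downward genes with the widest gaps, WT replicate 1 read far above WT replicate 2. AT1G68875, the gene with the largest difference of all named (-2.49 ± 0.67, 5.61-fold), read 6.37 and 4.51 in WT, 2.94 and 2.02 in the mutant, and 3.27 and 3.57 in TaVAPOE. AT5G53240 read 4.84 and 2.87 in WT, and AT3G21020 3.69 and 2.18. AT1G75870 read 3.63 and 2.05 in WT, and AT3G42390 3.58 and 2.58. Over the 4 concordant arrays, where WT replicate 1 does not enter, the differences of these 5 genes were smaller: -1.55 for AT1G68875, -1.09 for AT5G53240, -1.14 for AT3G21020, -1.26 for AT1G75870 and -1.52 for AT3G42390.

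**Figure D1:**
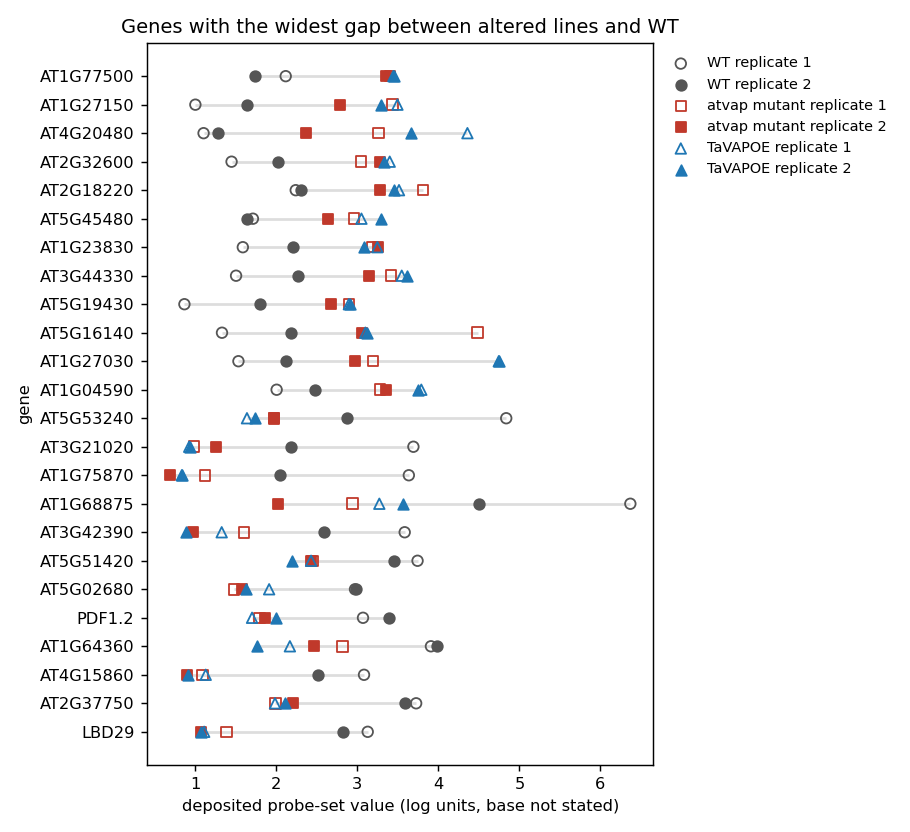
Deposited value of 24 genes (x axis, log units of unstated base), 12 per direction with the widest gap between the altered side and WT, 1 row per gene and 1 symbol per array. In LBD29 and PDF1.2 the 4 altered arrays cluster below both WT arrays, and in AT1G77500 they cluster above.

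On the higher side AT1G77500 had the widest gap. It read 2.12 and 1.74 in WT, 3.4 and 3.35 in the mutant, and 3.44 and 3.45 in the overexpressor. The 4 altered arrays were almost level with each other, mutant replicate 1 among them. The difference was 1.48 ± 0.34 log units, or 2.80-fold, and 1.67 ± 0.20 over the 4 concordant arrays (limma adjusted p = 0.188). AT1G27150 read 1.0 and 1.64 in WT and 2.79 to 3.49 on the altered arrays (1.93 ± 0.40). AT2G32600 read 1.45 and 2.02 against 3.05 to 3.4 (1.53 ± 0.36, and 1.32 ± 0.20 over the 4 concordant arrays). AT2G18220 read 2.24 and 2.30 against 3.28 to 3.81 (1.24 ± 0.35). For these 3 loci neither WT array reached the lowest altered array, as the choice by gap required.

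AT4G20480 and AT1G27030 read higher in both lines, but furthest in TaVAPOE. AT4G20480 read 1.1 and 1.28 in WT, 3.26 and 2.37 in the mutant, and 4.36 and 3.66 in TaVAPOE (2.22 ± 0.58). With values raised to 1.66, since both WT arrays lie below it, the difference was 1.75. AT1G27030 read 1.53 and 2.12 in WT, 3.19 and 2.97 in the mutant and 4.75 on both TaVAPOE arrays (2.09 ± 0.66). The other 6 genes of the 12 were AT3G44330, AT5G19430, AT5G16140, AT5G45480, AT1G04590 and AT1G23830, with differences from 1.3 for AT1G23830 to 1.68 for AT5G16140. In AT5G16140 mutant replicate 1 read 4.49 while the other 3 altered arrays read 3.05 to 3.12, and the difference over the 4 concordant arrays was 0.90. That was the smallest among the 12 higher genes on those arrays, and AT4G20480 had the largest at 2.18. Among the 12 lower genes it ran from -1.09 for AT5G53240 to -1.85 for AT1G64360.

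Taking the largest differences over the 4 concordant arrays, among genes whose sides did not overlap on all 6, brought in SKU5. SKU5 encodes a membrane-anchored glycoprotein related to multicopper oxidases that takes part in the directional growth of roots. It read 3.22 and 4.04 in WT, 4.25 and 5.57 in the mutant, and 5.98 and 5.81 in TaVAPOE. Mutant replicate 1 cleared the higher WT array by only 0.21 log units, and the other 3 altered arrays cleared it by 1.53 or more. The difference was 1.77 ± 0.59 over 6 arrays and 1.74 ± 0.25 over the 4 concordant ones (limma adjusted p = 0.188).

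The same choice named AT3G48650, AT4G17470 and AT1G57630 on the higher side. AT3G48650 read 2.49 and 2.21 in WT, 3.31 and 2.86 in the mutant, and 5.15 and 5.51 in TaVAPOE (1.85 ± 0.83). AT4G17470 read 3.19 and 2.63 in WT, 4.77 and 3.32 in the mutant, and 5.12 and 5.21 in TaVAPOE (1.70 ± 0.62). AT1G57630 read 2.21 and 1.76 in WT against 2.53 to 4.21 (1.37 ± 0.56). In all 3 the mutant lay between WT and TaVAPOE on the concordant arrays. Lower were AT1G68620, which read 4.71 and 5.01 in WT, 3.23 and 4.01 in the mutant and 1.83 and 2.57 in TaVAPOE (-1.95 ± 0.63), and AT5G12450, AT2G36180 and AT5G37160. The last 3 read 0.64 to 0.95 on the concordant altered arrays but 2.13 to 2.37 on mutant replicate 1, against 2.49 to 3.27 in WT.

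How far each line lay from WT was set side by side on the concordant arrays, where both differences use the same WT array. AT3G48650 lay 0.64 log units above WT in the mutant and 3.12 above in TaVAPOE. AT1G27030 lay 0.85 above in the mutant and 2.62 above in TaVAPOE. AT1G68620 differed by -1.0 in the mutant and by -2.81 in TaVAPOE, and AT1G68875 the other way round, by -2.48 in the mutant and -1.09 in TaVAPOE. LBD29, PDF1.2 and AT1G77500 were nearly equal in both lines, as the plot of each line's difference shows. The direct difference between the lines did not pass in limma for any named gene: over 4 arrays its adjusted p was 0.0911 for AT3G48650 (2.47), 0.0912 for AT1G27030 (1.78), 0.179 for AT1G68620 (-1.81) and 0.140 for AT1G68875 (1.40). Over 6 arrays it was 0.865 for these 4 genes. Of all 22746 probe sets, 15 passed that test over the 4 concordant arrays (0.0659%, 12 higher and 3 lower in TaVAPOE, with 1 residual degree of freedom), none of them among the 88 genes named by rule. Over 6 arrays 0 passed (0.0%), with 297 at an unadjusted p under 0.05, and 1 passed with 16 added on the linear scale.

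**Figure D2:**
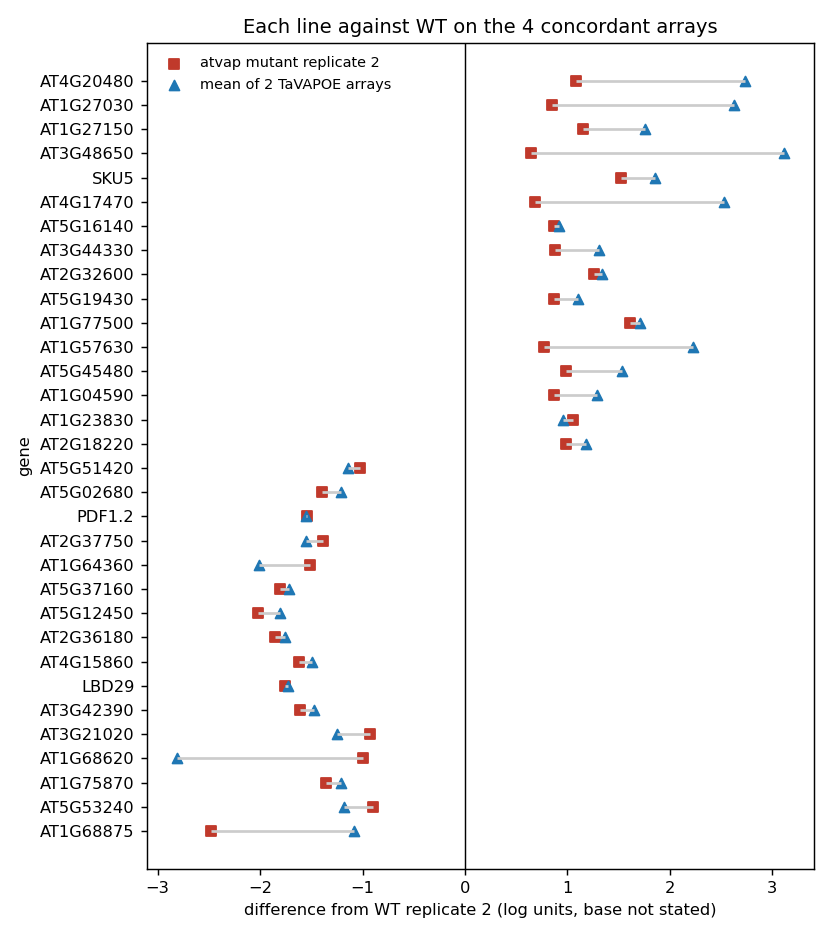
Difference from WT replicate 2 (x axis, log units) of mutant replicate 2 (squares) and of the mean of both TaVAPOE arrays (triangles), for the 32 genes named by gap or by difference over the 4 concordant arrays, 1 row each. Both marks lie on the same side of 0 by the way the genes were chosen, and they are far apart in AT3G48650, AT4G17470, AT1G68620 and AT1G68875.

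The genes on the list of cell-cycle and histone genes that were measured were all histone genes, and 3 of 5 read higher in both lines, against 5.2% of all genes. The list's median difference was 0.77 log units over 6 arrays and 0.58 over the 4 concordant arrays, beside 0.02 and -0.02 for all genes. HTB11, a histone H2B gene, read 3.14 and 3.92 in WT, 4.21 and 4.79 in the mutant, and 5.35 and 5.28 in TaVAPOE. Its WT arrays were the lowest, the mutant arrays came next and the TaVAPOE arrays were highest, with a difference of 1.37 ± 0.48. HTB2, another H2B gene, read 1.04 and 2.67 in WT and 2.88 to 3.53 on the altered side (1.27 ± 0.53). WT replicate 1 read far below WT replicate 2, and over the 4 concordant arrays the difference of HTB2 was 0.54 ± 0.30. HTR12, the centromeric histone H3 that marks where kinetochores form, read 1.82 and 2.33 in WT and 2.58 to 3.08 on the altered side (0.77 ± 0.38). HTB1 and HTB4 did not separate: mutant replicate 1 read 3.35 for HTB1, below both WT arrays at 3.47 and 3.54, and HTB4 differed by 0.12 ± 1.22. None of the 5 passed in limma, and over the 4 concordant arrays 4 of the 5 lay above WT replicate 2, beside 26.7% of all genes.

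Genes with a symbol were also looked at after their values had been seen, and those on the higher side are given next. TOPII, DNA topoisomerase II, which untangles chromosomes, read 1.42 and 2.39 in WT, 3.01 and 2.98 in the mutant, and 4.25 and 3.72 in TaVAPOE (1.59 ± 0.53). FBL17, an F-box protein that promotes cell-cycle entry by removing inhibitors of cyclin-dependent kinases, read 2.29 and 2.73 in WT and 3.30 to 3.45 on the altered arrays (0.87 ± 0.34). ATSMC2, a condensin subunit, read 1.88 and 2.19 against 2.62 to 3.77 (0.95 ± 0.45). On the 4 concordant arrays these differences were 1.26, 0.62 and 0.53. Since these 3 were picked by their values, they are no support for the histone list.

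Other genes on the higher side were picked in the same way. CPI1, cyclopropyl isomerase of sterol synthesis, read 2.20 and 2.99 in WT, 4.20 and 3.64 in the mutant, and 3.79 and 3.73 in TaVAPOE (1.24 ± 0.40, and 0.73 over the 4 concordant arrays). UBC20, a ubiquitin-conjugating enzyme, read 2.25 and 4.01 in WT against 4.53 to 5.04 (1.78 ± 0.55). AT-HF, an enzyme of histidine synthesis, read 1.13 and 3.02 against 3.50 to 3.81 (1.62 ± 0.56). In UBC20 and AT-HF the WT arrays were further apart than WT replicate 2 was from the altered side, and over the 4 concordant arrays they differed by 0.86 and 0.64. LUL4, a ubiquitin ligase, differed by 1.36 ± 0.45, NRPC2, a subunit of RNA polymerase III, by 0.90 ± 0.37, and PEL1, the Pelota factor that frees stalled ribosomes, by 1.21 ± 0.43. On the 4 concordant arrays LUL4 differed by 0.88, NRPC2 by 0.87 and PEL1 by 0.60. FU (FUSED) differed by 1.11 ± 0.39 on the probe set used here, and by -0.77 on its other probe set, so the 2 disagree.

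The genes with a symbol on the lower side were picked in the same way. XIC, a class XI myosin motor, read 3.25 and 3.21 in WT, 2.78 and 1.85 in the mutant, and 1.69 and 1.54 in TaVAPOE (-1.27 ± 0.46, and -1.52 ± 0.23 over the 4 concordant arrays). BLT (BRANCHLESS TRICHOME), which shapes the branches of leaf hairs, read 3.58 and 3.37 in WT and 2.33 to 2.81 on the altered side (-0.92 ± 0.35). Both genes kept the 2 WT arrays close together and above all 4 others. INO, a YABBY transcription factor known from the outer integument of the ovule, read 3.19 and 3.06 against 2.26 to 2.64 (-0.71 ± 0.34). MGL, methionine gamma-lyase, read 3.15 and 3.84 in WT, 1.91 and 2.84 in the mutant and 2.81 and 2.83 in TaVAPOE (-0.90 ± 0.45, and -1.01 ± 0.20 over the 4 concordant arrays). TBL34 differed by -1.35 ± 0.45, AGL29, a MADS-box gene, by -1.28 ± 0.46, TET11, a tetraspanin, by -1.28 ± 0.51, scpl41 by -1.34 ± 0.50 and the ubiquitin protease UBP20 by -1.15 ± 0.69. For TBL34, TET11, AGL29 and UBP20 the differences over the 4 concordant arrays were smaller, at -0.72, -0.43, -0.69 and -0.47. On those 4 arrays the 12 higher genes picked by symbol differed by 0.49 (THI2.2) to 1.35 (FU), and the 12 lower ones by -0.43 (TET11) to -1.74 (LBD29). OLEO3, an oleosin of oil bodies and the only measured member of the lipid list, read 2.41 and 2.62 in WT and 1.14 to 1.5 on the altered side (-1.20 ± 0.35), below 1.66 on all 4 altered arrays.

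**Figure D3:**
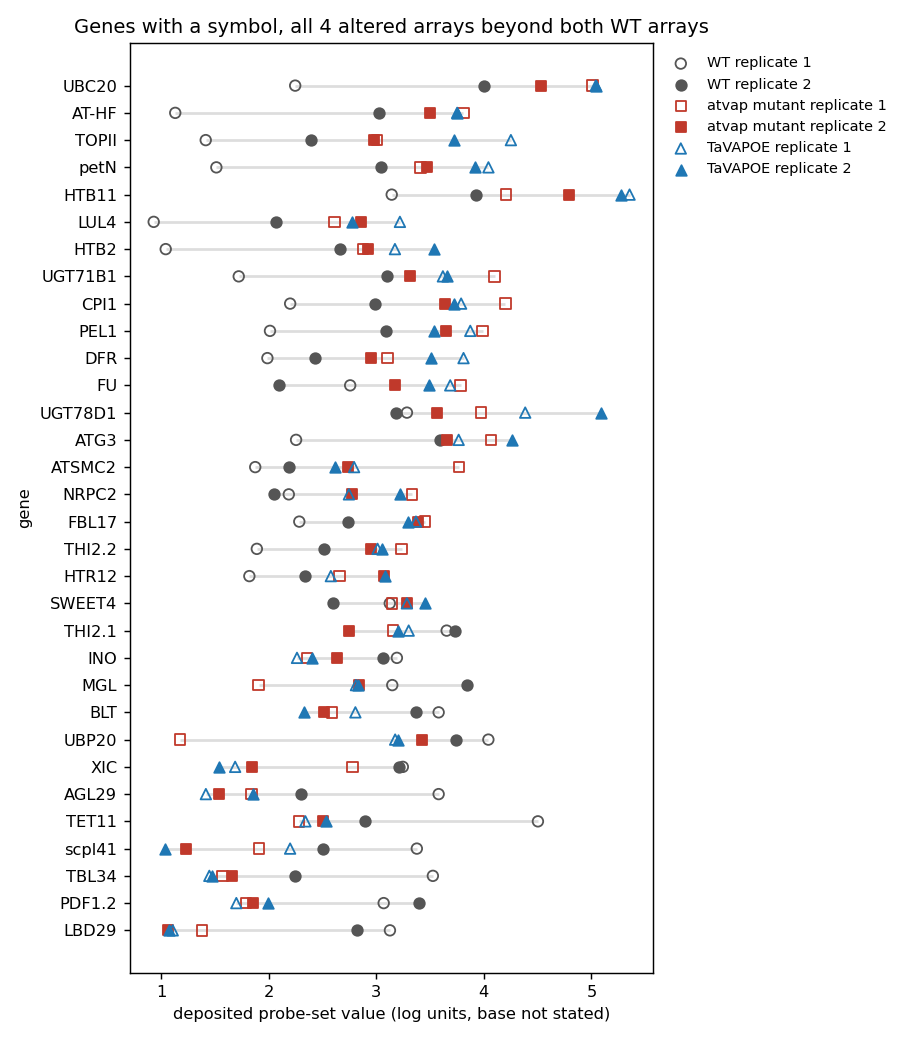
Deposited value (x axis, log units of unstated base) of 32 genes with a symbol whose 4 altered arrays lie beyond both WT arrays, 1 row per gene and 1 symbol per array, sorted by difference. In UBC20, AT-HF and TET11 WT replicate 1 lies far from WT replicate 2, and in LBD29, PDF1.2 and BLT the 2 WT arrays lie close together.

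The flavonoid list, most of whose members are glycosyltransferases of the UGT7 groups, had 4 of 36 genes higher and 1 lower, beside 5.2% and 4.57% of all genes. Its median difference was -0.06. A role in flavonoid synthesis was not checked for each member, so these counts need not be those of flavonoid genes. DFR, dihydroflavonol 4-reductase of the anthocyanin branch, read 1.99 and 2.43 in WT, 3.10 and 2.95 in the mutant, and 3.81 and 3.51 in TaVAPOE (1.13 ± 0.41). UGT78D1, which adds rhamnose to flavonols, read 3.29 and 3.19 in WT, 3.97 and 3.56 in the mutant, and 4.38 and 5.09 in TaVAPOE (1.01 ± 0.50). In both genes the WT arrays were the lowest and TaVAPOE was the highest. UGT71B1 differed by 1.26 ± 0.50, and by 0.43 over the 4 concordant arrays. On those arrays 6 of the 36 genes lay above WT replicate 2 and 16 below, beside 26.7% and 30.8% of all genes.

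The jasmonate list had 1 of 10 genes higher and 2 lower, beside 5.2% and 4.57% of all genes, with a median of 0.16 over 6 arrays and -0.31 over the 4 concordant arrays. Of the 10, 3 are no jasmonate genes and had been caught by their symbols: PDF1A and PDF1B, peptide deformylases, and THIC, of thiamine synthesis. Without them, a trimming made after the values were seen, 1 of 7 was higher and 2 were lower, and the median was -0.03 over 6 arrays and -0.65 over the 4 concordant arrays. Besides PDF1.2, the thionin gene THI2.1 read lower, at 3.65 and 3.74 in WT, 3.15 and 2.74 in the mutant, and 3.30 and 3.20 in TaVAPOE (-0.60 ± 0.35). Its relative THI2.2 read higher, at 1.89 and 2.52 in WT against 2.95 to 3.24 (0.86 ± 0.36, and 0.49 over the 4 concordant arrays). The 2 thionin genes thus lay on opposite sides of WT in both lines. PDF1.2b, whose probe set is of a class that can match several transcripts, read 4.90 on WT replicate 2 and 2.49 to 2.64 on the altered arrays, but 2.15 on WT replicate 1, so its sides overlapped. Of the 7 genes 1 lay above and 4 lay below WT replicate 2 on the 4 concordant arrays, beside 26.7% and 30.8% of all genes.

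In the auxin list 2 of 17 genes were higher and 1, LBD29, was lower, beside 5.2% and 4.57% of all genes. GH3.17 and LBD16 were the higher ones, both with a higher-side mean below the median of all values, and with gaps of 0.005 and 0.06 log units. The list's median was 0.10 over 6 arrays and -0.16 over the 4 concordant arrays, where 3 genes lay above WT replicate 2 and 8 below, beside 26.7% and 30.8% of all genes.

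In the VAP27 family 2 of 7 measured genes read higher in both lines, beside 5.2% of all genes: AT4G05060 by 0.49 ± 0.36, with a gap of 0.08, and AT4G00170 by 0.49 ± 0.36, with a gap of 0.07. On the 4 concordant arrays AT4G05060 differed by 0.19 and AT4G00170 by 0.29. The family's median was -0.08 over 6 arrays and 0.12 over the 4 concordant arrays. On the latter 3 of the 7 lay above WT replicate 2 and 2 below, beside 26.7% and 30.8% of all genes. The largest difference there was that of AT5G47180 at -0.83, and the sides of that gene overlapped on 6 arrays. In the ER stress and folding list 0 of 13 were higher and 1 was lower, beside 5.2% and 4.57% of all genes. That one is HRD, which here is HARDY, an AP2-type transcription factor that the search by symbol had caught, and no ER protein (-0.88 ± 0.40, and -0.40 over the 4 concordant arrays). Of the chaperone genes ATERDJ3B read 2.33 and 4.77 in WT, 2.44 and 5.17 in the mutant, and 5.09 and 5.17 in TaVAPOE. Its sides overlapped through mutant replicate 1. On the 4 concordant arrays 7 of the 13 lay above WT replicate 2 and 2 below, beside 26.7% and 30.8% of all genes. The list median there was 0.23, with HRD counted. Those shares differ by level: of all probe sets with a mean between 3 and 4 log units, 41.6% were higher and 16.5% lower. Between 4 and 6 log units it was 40.5% and 11.3%.

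Vesicle traffic genes gave 0 separated of 19 and the ER contact site list 0 of 4, beside 5.2% of all genes higher and 4.57% lower. The median of the vesicle list was 0.29 over 6 arrays and 0.05 over the 4 concordant arrays. SEC15B, an exocyst subunit, had the largest difference of the vesicle list at 1.45 ± 0.83. It read 1.29 on WT replicate 1 and 4.14 on replicate 2, against 3.28 to 4.53 on the altered side. VPS24.2, of the machinery that sorts cargo into multivesicular bodies, read 3.36 and 1.22 in WT and 0.78 to 1.36 on the altered arrays (-1.16 ± 0.62). In both genes WT replicate 1 lay far from WT replicate 2, and over the 4 concordant arrays SEC15B differed by 0.32 and VPS24.2 by -0.17. NET3C, an actin-binding partner of VAP27 at ER contact sites, read 1.18 to 1.45 on all arrays but mutant replicate 1, where it read 4.34. NET3B read 0.37 to 1.03 and 3.00 there. The difference of 0.71 ± 0.95 for NET3C rests on that array, and over the 4 concordant arrays it was -0.18. In the autophagy list 1 of 10 separated, beside 5.2% of all genes higher and 4.57% lower. It was ATG3, the enzyme that attaches ATG8 to lipid (1.01 ± 0.48, and 0.30 over the 4 concordant arrays).

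Of 9 nuclear photosynthesis genes 0 separated, beside 5.2% of all genes higher and 4.57% lower. LHCB4.1 and PSAE-1 differed by -1.64 ± 1.92 and -1.26 ± 1.49. Over the 4 concordant arrays, without the low values of mutant replicate 1, they differed by -0.08 and -0.12. Of 69 plastid-encoded genes 2 read higher, beside 5.2% of all genes. They were petN, a subunit of the cytochrome b6f complex (1.43 ± 0.52, and 0.77 over the 4 concordant arrays), and psbM of photosystem II, which read 8.99 and 8.98 in WT and 9.05 to 9.70 on the altered side (0.38 ± 0.36). Without mutant replicate 1 the plastid list had 33 of 69 higher and 2 lower, beside 15.7% and 17.2% of all genes. Those shares differ by level: of all probe sets with a mean between 4 and 6 log units, 39.5% were then higher and 0.136% lower. On the 4 concordant arrays 36 of the 69 lay above WT replicate 2 and 13 below, beside 26.7% and 30.8% of all genes. Of all probe sets with a mean between 4 and 6 log units, 40.5% lay above it and 11.3% below. The largest plastid difference was that of ndhA, which read 2.01 and 4.37 in WT, 3.62 and 5.44 in the mutant, and 6.80 and 6.12 in TaVAPOE (2.31 ± 1.02), with mutant replicate 1 between the WT arrays.

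Stress lists had no separated gene, beside 5.2% of all genes higher and 4.57% lower: 0 of 8 for cold and dehydration, 0 of 6 for salicylate and immunity and 0 of 19 for oxidative stress. The median of the cold list was -0.40 over 6 arrays and -0.19 over the 4 concordant arrays. That of the salicylate list was 0.37 and 0.05, and that of the oxidative stress list -0.16 and 0.07, so the sign of the last turned. The largest differences in these lists were those of the glutathione transferase genes GSTU23 (-1.61 ± 0.85) and GSTU20 (1.12 ± 1.29), of WRKY22 (0.87 ± 0.80) and of WRKY42 (0.61 ± 0.69), and of LEA (-0.79 ± 0.73) and LEA18 (-0.68 ± 0.57). In GSTU20 the sides overlapped widely, at 3.08 and 5.82 in WT and 2.84 to 6.73 on the altered arrays. Cell wall genes gave 0 of 45 (median -0.06), with PMEAMT at 1.25 ± 0.72 and PRP39-2 at -1.04 ± 0.54. By their names these 2 are a phosphoethanolamine methyltransferase and an RNA-processing gene, again caught by the search by symbol. Transporters gave 1 of 18, the sugar transporter gene SWEET4 (0.43 ± 0.35), and cytokinin and gibberellin genes 0 of 4, with the gibberellin receptor genes GID1C at 0.53 ± 0.69 and GID1A at 0.36 ± 0.57. On the 4 concordant arrays WRKY42 (-0.19), GID1C (-0.25) and LEA (0.20) had the opposite sign, and without WT replicate 1 so had GSTU20 (-0.25) and WRKY22 (-0.18). On the same 4 arrays GSTU23 differed by -0.89, GSTU20 by 0.66, WRKY22 by 0.26, PMEAMT by 0.50, PRP39-2 by -0.43 and SWEET4 by 0.74. LEA18 differed there by -0.002. Members were not analysed here for the lists of abscisic acid, mitochondria-encoded and cytosolic ribosome genes.

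**Figure D4:**
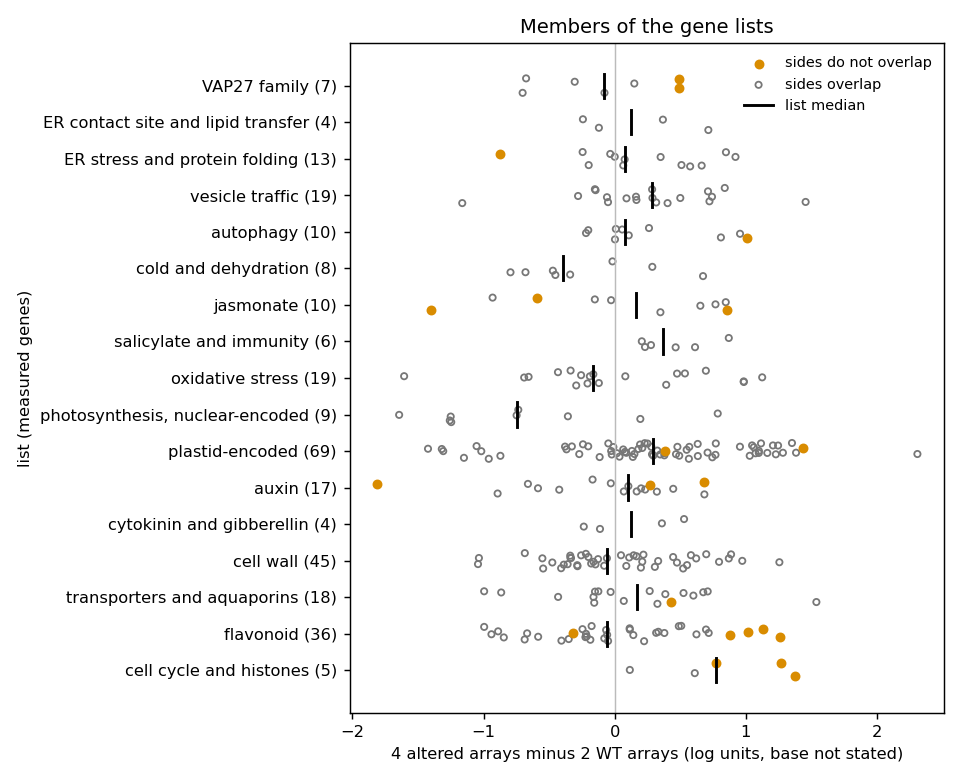
Difference between the 4 altered and the 2 WT arrays (x axis, log units) for each measured gene of the 17 lists with at least 3 measured genes. Filled points are genes whose sides do not overlap, open points are the rest, bars are list medians, and points are spread at random in height within a list. The histone genes lie to the right of 0, and the separated genes of the jasmonate and auxin lists fall on both sides.

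The share of separated probe sets differed by level. By mean level over the 6 arrays, all 4 altered arrays were above WT in 9.9% of the 5669 probe sets between 3 and 4 log units, in 1.64% of the 2932 between 4 and 6, and in 0.197% (1 of 507) of those at 6 and over. Without mutant replicate 1 the shares were 30.7%, 39.5% and 28.4%. The 99th percentile of that array was 4.84, against 5.78 on WT replicate 1 and 7.65 to 7.78 on the rest. Leaving out any array raises such shares by construction, and the part of this array in them was not tested. Below 2 log units the altered side was lower in 6.7% of 5683 probe sets, and in 32.2% without mutant replicate 1. Between 4 and 6 log units, 1157 probe sets were higher and 4 lower without mutant replicate 1, and 1186 and 332 when WT replicate 1 was left out as well. The part of WT replicate 1 in that was not tested, since no other array was left out by level. The shares of all genes given beside each list were not matched for level.

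**Figure D5:**
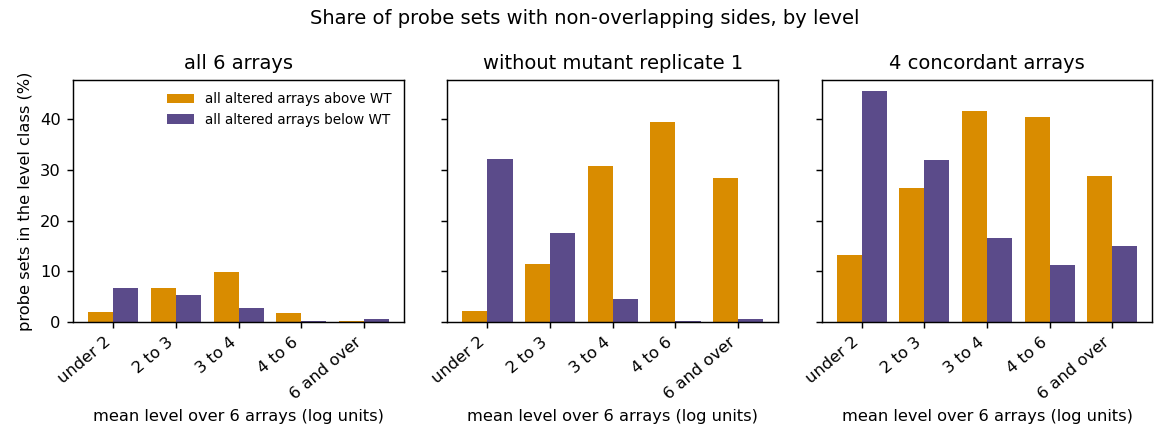
Share of probe sets (y axis, %) whose altered arrays all lie above (orange) or all below (violet) the WT arrays, by mean level over the 6 arrays (x axis, log units), for all 6 arrays, without mutant replicate 1, and for the 4 concordant arrays. With 6 arrays the share above WT falls from 9.9% between 3 and 4 log units to 0.197% at 6 and over.

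With the 4 concordant arrays, that is 3 altered arrays against WT replicate 2 alone, more probe sets separated, and that single array has no replicate. By over 1 log unit, 159 probe sets lay above it on all 3 altered arrays (0.699%) and 270 lay below (1.19%). WT replicate 1 lay on the side of WT replicate 2 for 84 of the 159 (52.8%) and for 182 of the 270 (67.4%). Of all probe sets separated on these 4 arrays by any gap, it did so for 62.2% of the higher and 54.0% of the lower. Mutant replicate 1 also took its line's side for 38 and 65, which are 23.9% and 24.1%, beside 19.0% and 14.9% by any gap. For over 2 log units, there were 0 above and 1 below.

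Leaving out mutant replicate 1 alone, a choice made after the data had been seen, named genes in which mutant replicate 2 and both TaVAPOE arrays lay beyond WT while mutant replicate 1 did not, so that the mutant line rests on 1 array. AT1G66430 read 3.43 and 3.44 in WT, 5.14 on mutant replicate 2, and 5.00 and 5.22 in TaVAPOE, with 2.67 on mutant replicate 1. AT5G66420 read 3.32 and 3.49 in WT, 4.91 on mutant replicate 2, and 5.09 and 5.19 in TaVAPOE, with 2.62 on mutant replicate 1. Here both WT arrays agreed and the 3 remaining altered arrays agreed, more than 1 log unit apart. AT1G55890 read 1.71 and 2.34 in WT and 3.59 to 4.11 on those 3 arrays. On the lower side AT2G19840 read 3.47 and 2.77 against 0.45 to 1.0, and AT3G11470 3.62 and 2.54 against 0.80 to 0.86, with 2.91 and 3.71 on mutant replicate 1. Over 6 arrays AT1G66430 differed by 1.07 ± 0.78 and AT5G66420 by 1.05 ± 0.78.

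The 836 genes from which names were taken lay on all 5 nuclear chromosomes, and the plastid genes petN and psbM were also among them. Chromosome 1 held 154 of the 535 higher and 82 of the 301 lower genes, beside 25.8% of all measured nuclear genes. Chromosome 5 held 127 and 86, beside 22.6%. The median size of difference in the 836 genes was 0.83 log units over 6 arrays and 0.46 over the 4 concordant arrays, and 51 higher and 32 lower genes differed by over 1 log unit on the latter. These sizes follow in part from the way the genes were chosen.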

How the data were processed

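Biotin-labelled cRNA from total RNA of whole seedlings was hybridised to Affymetrix arrays, per the labels' protocols. What was deposited is 1 score per probe set and array, log-scaled with the base unstated. Medians per array were 2.74 to 2.88. Agilent Feature Extraction, named in the submitters' processing notes, does not go with these arrays. No source used here gives how probes were summarised and arrays normalized. The design assumed log values, which were kept as deposited.

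Gene names came from the platform annotation and the RefSeq gene table of TAIR10.1, with 13436 of 13513 probe sets matched, 503 with several genes and 8730 unnamed here. The probe set with the highest mean stood for a gene. The altered side was tested against WT in limma 3.58.1 (R 4.3.3) with 4 and 2 arrays, 4 residual degrees of freedom and Benjamini-Hochberg adjustment at 0.05. Differences of single lines came from a fit with a mean per genotype. p-values measure the spread between these arrays. In the fit of the altered side that spread includes the difference between the mutant and TaVAPOE. Over the 4 concordant arrays WT is a single array, so the standard errors there hold no WT spread. A smaller standard error on those arrays is therefore no sign of better precision. With 6 arrays, their number limits the precision.

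Named genes were the 12 per direction with the widest gap, the 6 per direction with the largest difference over the 4 concordant arrays, and up to 4 separated genes of each list with 3 or more measured genes, or else up to 2 by size of difference. Genes with a symbol (12 per direction) and genes without mutant replicate 1 (6 per direction) were added after their values were seen. So were OLEO3, PDF1.2b, GH3.17, LBD16, ndhA, HTB1, HTB4 and AT5G47180. The members and the 24 lists were chosen with earlier results of these data known. Probe-set and promoter sequences were not used here.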

Additional observations from a re-analysis of the deposited data

Results flagged for a closer look

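Among the 4 altered arrays, 7 of 46 named genes had 1 array far from the other 3 by Dixon's test at its critical value. Chance flags about 1 group in 20, and the 46 genes share the same arrays. Mutant replicate 1 was the far array for AT5G16140 (4.49), AT5G37160 (2.13), AT5G12450 (2.37), AT2G36180 (2.36) and LBD29 (1.38). Mutant replicate 2 was the far one for AT5G19430 (2.67) and TaVAPOE replicate 2 for AT5G51420 (2.19). By the way the genes were chosen, each of these values lay beyond both WT arrays. The mean of the plant reference transcripts (3.50) and the mean of the bacterial hybridisation controls (9.09) set mutant replicate 1 apart in the same way.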

How the results depend on the processing

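In limma the count of probe sets past the threshold was 0 for the altered side against WT under each of the 18 other settings run, among them the replicate block, where 608 had an unadjusted p under 0.05, against 542 without it. The replicate numbers were not taken to pair the arrays: the deviations of replicate 1 from replicate 2 correlated at 0.580 between WT and mutant, 0.0141 between WT and TaVAPOE and 0.0884 between mutant and TaVAPOE. The block changed no call. For TaVAPOE alone against WT, 2 passed with 16 added on the linear scale, 3 with array weights and 9 over the 4 concordant arrays, and 0 in the other settings; for the mutant alone 0 passed in each. The 2203 separated probe sets became 1379 without probe sets below the 40th percentile, 13004 over the 4 concordant arrays, and 2614 to 11726 with 1 array left out: 6128 without WT replicate 1, 11726 without WT replicate 2 and 7560 without mutant replicate 1. Fewer arrays make separation easier by construction. Of 88 named genes 9 changed sign in some setting, and in all 9 the sides overlapped on 6 arrays. Where the sides do not overlap, leaving out or weighting arrays cannot change the sign. The kept sign of genes chosen for such a gap is thus no test of them. Over the 4 concordant arrays these were NET3C (-0.18), NET3B (-0.36), WRKY42 (-0.19), GID1C (-0.25) and LEA (0.20), and with a mean per genotype there NET3C (-0.20), NET3B (-0.31), WRKY42 (-0.17), GID1C (-0.29), LEA (0.24) and LEA18 (0.0629). With array weights NET3B did (-0.20). With 1 array left out the differences ran from -0.0533 to 1.0 for NET3C and -0.21 to 0.66 for NET3B, lowest without mutant replicate 1. They ran from -0.25 to 2.49 for GSTU20, -0.30 to 2.14 for ATERDJ3B and -0.18 to 1.92 for WRKY22, lowest without WT replicate 1, and from -1.53 to 0.17 for LEA18 and -2.03 to 0.44 for LEA, highest without it. The cause was not tested. Values below 1.66 are of uncertain meaning.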
